A study of Drosophila melanogaster with 216 samples.

Results

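The genes described here encode the subunits of respiratory complexes II to V of the fruit fly Drosophila melanogaster. They were taken as every probe set that the array's annotation pairs with a single gene whose current symbol, reached through its Entrez gene number, starts with Sdh, UQCR, ATPsyn or COX4 to COX8, or is RFeSP, ox, Cyt-c1, Cyt-c-p or blw. The rule found 51 probe sets for 45 genes among the 18769 probe sets tested, and it used no measured value. Of these, 34 probe sets belonged to 28 ordinary subunit genes, 16 to genes whose symbol is that of a subunit with the suffix L (for "like") and 1 to the assembly factor Sdhaf3. By complex there were 7 probe sets for complex II, 10 for complex III, 17 for complex IV and 17 for complex V. The rule names 8 further genes for which no probe set of their own was found in the annotation used here, among them SdhA (the flavoprotein of complex II), Cyt-c-p (somatic cytochrome c) and the core proteins UQCR-C1 and UQCR-C2, so those are not analysed here.

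The study asked how the food of the larva and the food of the adult shape gene activity in the adult. Flies were raised on 1 of 3 larval foods and, as newly emerged adults, were split over the same 3 foods in every combination. The foods were 1SY, the standard sugar and yeast medium, and media with 0.25 or 2.5 times its sugar and yeast, called 0.25SY and 2.5SY. Virgin females and males were frozen at 1 day of adult age, at middle age (10% of the cohort dead) and at old age (90% dead), and RNA of 5 whole bodies was hybridised to each Affymetrix Drosophila 2.0 array. That gave 54 groups of 4 arrays, 216 arrays in all, and 36 arrays for each sex at each age. The groups differed in sex, age and food only, and no allele or drug is named for any of them. All came from a laboratory stock that the study calls S. The arrays of a group were pools of flies of the same cohort, so the p-values below measure the spread between such pools. Middle and old age were reached on different days on different foods, so an age here is a share of dead flies and not a number of days.

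The respiratory chain of the inner mitochondrial membrane passes electrons from food to oxygen. Complex II (succinate dehydrogenase, which is also an enzyme of the tricarboxylic acid cycle) hands electrons to ubiquinone, complex III passes them from ubiquinol to cytochrome c, and complex IV (cytochrome c oxidase) passes them to oxygen. Complexes III and IV pump protons, and complex V (ATP synthase) lets the protons flow back through its membrane ring while its catalytic head makes ATP. Insect flight muscle is packed with mitochondria, and the fly genome holds second copies of many of these nuclear genes that are known for their activity in the testis, where a large mitochondrial derivative runs along the sperm tail.

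Values are log2 signals as deposited, on a scale where 1 unit is a 2-fold difference, and levels are given as the lowest, median and highest array of a group. The signals ran from 2.90 to 15.09 over all arrays, and the mean over all probe sets lay between 7.34 and 7.46 on every array. Most ordinary subunits of complexes III, IV and V stood between 12 and 14.7, close to the top of that scale, where differences between signals can be compressed. Signals of different probe sets were not set against each other. 6 arrays, 2 of females and 4 of males, stood apart and had the lowest array weights. 1 of them, labelled as an old male (larval 0.25SY, adult 2.5SY, replicate 1), had a female profile, with 5.02 for the sperm gene Mst84Da against 11.48 to 13.43 on the other 35 old-male arrays. Another, an old male (larval 0.25SY, adult 1SY, replicate 3), had levels like those of 1-day-old males, as in a mean of 13.55 over the 28 subunit genes against 12.61 to 12.70 on the other arrays of its group. On a further old-male array (larval 1SY, adult 0.25SY, replicate 1) the mean of the suffix L copies other than COX7AL2 was 8.64. The other arrays of its group had 9.66 to 9.87. Its mean over a list of female germline genes was 9.67, against 10.74 on the array with a female profile. Values given without the array with a female profile still include it. The 6 arrays were kept in the fits, and values without them are given where they matter.

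The 16 copies with the suffix L had male means from 7.75 (ATPsynbetaL) to 12.63 (COX7AL2), where array medians averaged 7.22 to 7.30 by age. Their female means ran from 4.14 (COX7AL) to 6.80 (UQCR-11L) apart from COX7AL2 at 11.41, beside array medians of 6.74 to 6.79. All 16 were lower in females at each of the 3 ages by limma, at an adjusted p under 0.05 over all probe sets, where the sexes differed in 94.7% of all probe sets at 1 day (30.2% lower in females), 94.6% at middle age (28.6%) and 94.4% at old age (30.0%). The median female minus male difference over the 16 was -5.09 at 1 day, -4.55 at middle age and -4.34 at old age on the log2 scale, beside a median over all probe sets of 0.27, 0.26 and 0.26. The old-age differences between the sexes, here and below, keep the array with a female profile among the males. That array lowered the old-male mean of SdhBL from 10.58 to 10.41, beside 10.66 at middle age. Its part in the smaller gap at old age was not tested. With each array centred on its own median the differences over all probe sets moved to 0.73, 0.74 and 0.81, and the copies kept their direction, except that COX7AL2 turned from -0.32 to 0.14 at 1 day. Without the array with a female profile, every male array lay above every female array for 15 of the 15 copies other than COX7AL2 at 1 day and at middle age, and for 14 of 15 at old age. ATPsynepsilonL was the exception, with old females at up to 7.57 and old males from 7.30. How many of all probe sets had no overlap between the sexes was not counted.

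COX7AL, a copy of the small complex IV subunit COX7A, showed the widest gap between the sexes. Its level was 11.45, 11.61 and 11.88 (lowest, median and highest of 36 arrays) in 1-day-old males and 3.58, 4.07 and 4.67 in 1-day-old females. The sexes did not overlap, and the female minus male difference was -7.59 ± 0.116 (SE; limma, adjusted p = 5.35e-118). COX4L, a copy of the regulatory subunit COX4, followed with -7.42 ± 0.118, from 11.88, 12.27 and 12.51 in males against 4.41, 4.82 and 5.30 in females. COX6CL differed by -6.87 ± 0.11, COX5BL by -6.70 ± 0.108 and SdhBL, a copy of the iron-sulphur subunit of complex II, by -6.27 ± 0.11. Of the other copies, COX6AL2 (-5.80), ATPsynCF6L (-5.74), SdhCL (-5.50), ATPsynGL (-4.68), COX6AL (-4.60), UQCR-14L (-4.46) and UQCR-11L (-4.35) came between these and SdhAL, a copy of the flavoprotein, at -3.25 ± 0.07. Signals of all these copies were thus at least 3 log2 units lower in females at 1 day.

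ATPsynbetaL and ATPsynepsilonL, copies of subunits of the catalytic head and central stalk of ATP synthase, differed much less between the sexes. ATPsynbetaL stood at 7.93, 8.26 and 8.57 in 1-day-old males and at 5.92, 6.25 and 7.42 in females, a difference of -1.97 ± 0.0495, which was -1.51 ± 0.0495 at old age. ATPsynepsilonL differed by -2.02 ± 0.0522 at 1 day and by -1.30 ± 0.0522 at old age. UQCR-11L stood at 10.84, 10.97 and 11.20 in 1-day-old males and at 5.80, 6.69 and 7.33 in females, without overlap.

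**Figure D1:**
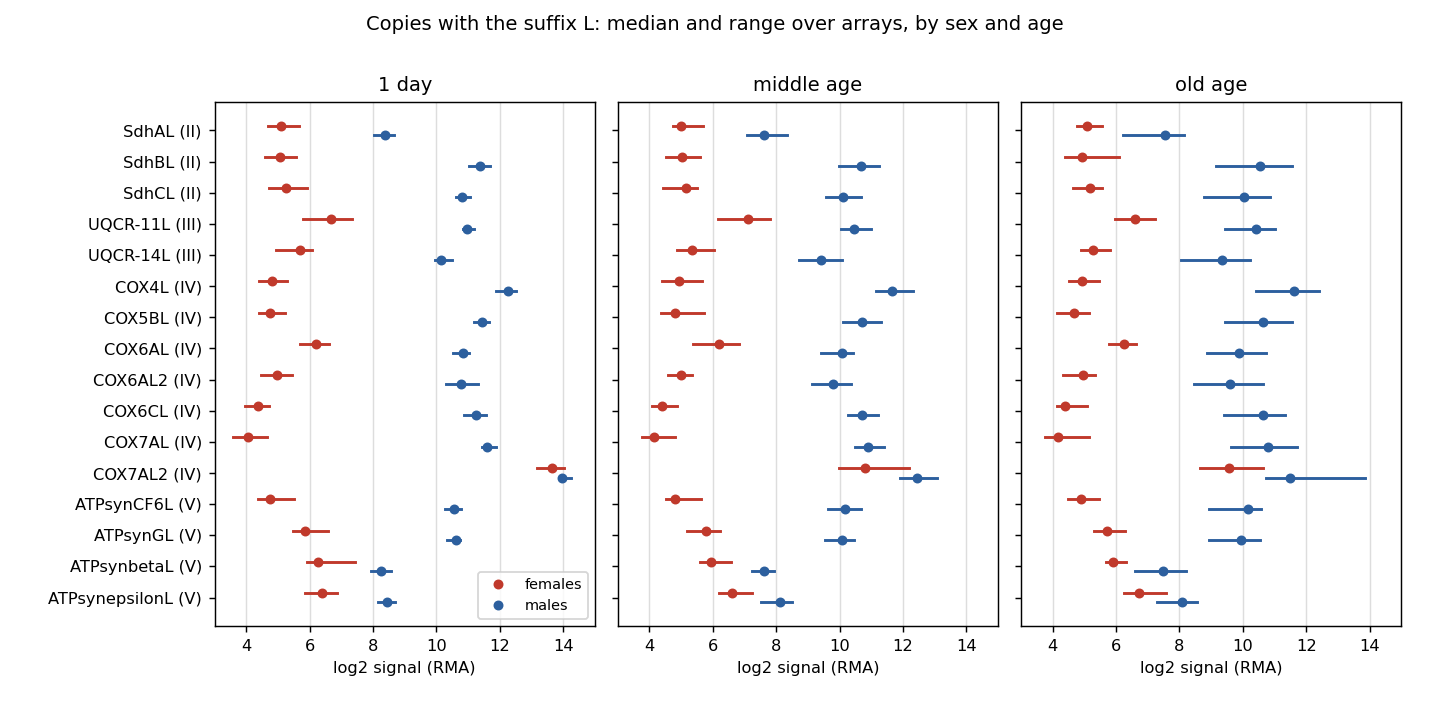
Median (point) and range (line) of the log2 signal of the 16 copies with the suffix L in females and males at 1 day, middle age and old age, 36 arrays a group except 35 for old males, where the array with a female profile is left out; the complex is in brackets. The male values lie to the right of the female values in 15 copies, apart from an overlap of ATPsynepsilonL at old age, while COX7AL2 starts near 14 in both sexes and falls with age.

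COX7AL2 did not share this pattern. At 1 day its level was 13.88, 13.96 and 14.24 in males and 13.18, 13.64 and 14.03 in females, so that the ranges overlapped. A probe set of an ordinary subunit, COX7C of complex IV, did. The brighter of its 2 probe sets stood at 13.88, 13.94 and 14.07 in 1-day-old males and 13.44, 13.70 and 13.87 in females. The other stood at 10.33, 10.72 and 11.06 in males and 3.84, 4.60 and 4.93 in females, a female minus male difference of -6.17 at 1 day that was -5.31 at middle age and -4.97 at old age. The gene COX7CL lies next to COX7C in the annotation and had no probe set of its own here. Which transcript the second probe set detects was not tested. UQCR-11, the hinge subunit of complex III and namesake of UQCR-11L, was dim in both sexes, at 6.11, 6.81 and 7.42 in 1-day-old females and 5.71, 6.14 and 6.64 in 1-day-old males.

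A list of 30 testis and sperm genes moved with the copies. Its mean per array was 10.56 to 10.79 in 1-day-old males against 5.05 to 5.68 in 1-day-old females, and on the old-male array with a female profile it was 5.22, where the mean of the 15 copies other than COX7AL2 was 5.30. In whole flies, fewer cells of a type and less RNA per cell cannot be told apart.

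The ordinary subunits differed little between the sexes. At 1 day 29 of the 34 were lower and 3 were higher in females, with a median difference of -0.25, but with each array centred on its median 3 were lower and 31 higher, with a median of 0.21. At middle age 22 were lower and 10 higher, with a median of -0.14, against 4 lower and 29 higher, with a median of 0.34, on centred arrays. At old age 23 were lower and 6 higher, with a median of -0.11, against 4 lower and 28 higher, with a median of 0.44, on centred arrays. Over all probe sets the centred medians were higher still, at 0.73, 0.74 and 0.81 for the 3 ages. The shares of all probe sets called on centred arrays are not given here. On the deposited values 10 of the 34 had no overlap between the sexes at 1 day, the second COX7C probe set among them. The share of all probe sets without overlap was not counted. The 3 that were higher at 1 day were UQCR-11 and the dim extra probe sets of RFeSP and COX7B. After centring each array on its median, the difference of Cyt-c1 (the haem-bearing cytochrome of complex III) turned from -0.27 to 0.20 at 1 day, that of COX4 from -0.26 to 0.20 and that of blw (the alpha subunit of ATP synthase) from -0.19 to 0.27. The assembly factor Sdhaf3, which helps to mature the iron-sulphur subunit of complex II, stood 0.72 ± 0.0366 higher in females at 1 day, 0.63 ± 0.0366 at middle age and 0.98 ± 0.0366 at old age. Its level was 9.29, 9.57 and 9.90 in 1-day-old females and 8.67, 8.85 and 9.12 in 1-day-old males, with no overlap. UQCR-Q, a small subunit of complex III that lies near the ubiquinone site, had the largest negative difference at 1 day after the second COX7C probe set, at -0.73 ± 0.0273. ATPsynC and ATPsyndelta of ATP synthase were higher in females at the later ages, by 0.25 ± 0.0293 and 0.21 ± 0.0261 at middle age and by 0.30 ± 0.0293 and 0.13 ± 0.0261 at old age.

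Between 1 day and middle age nearly all ordinary subunits fell in both sexes. In females 29 of 34 fell, 3 rose and 2 did not pass the test, with a median of -0.57, in a comparison that called 61.0% of all probe sets, 35.3% as lower. In males 31 of 34 fell, 1 rose and 2 did not pass, with a median of -0.63, where 72.4% of all probe sets were called, 34.8% as lower. The medians over all probe sets were -0.03 in females and -0.00 in males. For 23 of the 34 probe sets in females and 28 of 34 in males, every middle-aged array lay below every 1-day-old array. The share of all probe sets that did so was not counted, so these counts have no background.

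Complex V showed the largest falls in males. ATPsynC, the proton-carrying ring subunit, went from 14.56, 14.64 and 14.69 at 1 day to 13.16, 13.28 and 13.62 at middle age in males, and from 14.26, 14.44 and 14.52 to 13.16, 13.60 and 13.70 in females. The ages did not overlap in either sex. It fell by 1.34 ± 0.0376 in males (limma, adjusted p = 6.75e-50) and by 0.88 ± 0.0178 in females (adjusted p = 2.03e-61), and the difference between the sexes in this change was 0.46 ± 0.0414 (adjusted p = 9.92e-21). The catalytic subunit ATPsynbeta fell by 1.10 ± 0.0419 in males and 0.73 ± 0.0295 in females by its brighter probe set, which stands for the gene below, and by 0.42 ± 0.0207 and 0.32 ± 0.017 by the other. ATPsynD of the peripheral stalk fell by 0.90 ± 0.0338 and 0.80 ± 0.0255, and ATPsyndelta of the central stalk by 1.05 ± 0.0333 and 0.66 ± 0.0167. The fall was greater in males for all 13 probe sets of complex V by the test of sex by age, a test added after earlier results were seen, in which 54.9% of all probe sets were called, 24.8% with a female minus male value above 0.

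Complex II and its partners did not follow that order. SdhD, a membrane anchor of complex II, fell by 0.93 ± 0.0224 in females and 0.90 ± 0.0327 in males, and the sexes' falls did not differ by the test (-0.03 ± 0.0395, adjusted p = 0.525). SdhB, the iron-sulphur subunit, fell more in females, by 0.54 ± 0.0354 against 0.31 ± 0.0331 in males, and the difference was -0.22 ± 0.0485 (limma, adjusted p = 2.5e-05). SdhC, the other anchor, fell by 0.72 ± 0.0278 and 0.61 ± 0.0317. In complex III the Rieske iron-sulphur protein RFeSP fell by 0.66 ± 0.0309 in females and 0.63 ± 0.027 in males, and Cyt-c1 by 0.54 ± 0.0174 and 0.63 ± 0.0283. In complex IV COX4 fell by 0.44 ± 0.0198 and 0.52 ± 0.0235 and COX5A by 0.55 ± 0.0178 and 0.63 ± 0.028. In complex V the alpha subunit blw fell by 0.50 ± 0.0146 in females and 0.74 ± 0.024 in males.

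UQCR-11 rose from 1 day to middle age in both sexes, against the direction of its complex. The dim signal went from 5.71, 6.14 and 6.64 to 6.38, 6.86 and 7.44 in males, where it rose by 0.74 ± 0.0673, and it rose by 0.28 ± 0.055 in females. The ranges of the ages overlapped in both sexes. In males all 16 copies with the suffix L fell over the same interval, with a median of -0.70 and COX6AL2 at -0.99 ± 0.121 as the most negative after COX7AL2. In females, where most copies stood below the array medians, 5 fell, 3 rose and 8 did not pass. UQCR-11L rose by 0.48 ± 0.0691 in females and fell by 0.55 ± 0.0837 in males, a difference of 1.03 ± 0.109 between the sexes.

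Markers of other tissues moved over this interval too. The 19 muscle genes had 18 lower at middle age in each sex, with medians of -1.16 in females and -1.27 in males, and their mean per array went from 12.54 to 13.21 down to 10.50 to 12.22 in females and from 13.21 to 13.38 down to 11.73 to 12.28 in males. In males 27 of the 30 testis and sperm genes were lower, with a median of -0.54. The part of muscle or testis in the falls was not tested. The 26 ordinary subunits of complex I, the remaining complex of the chain, all fell in both sexes, with medians of -0.68 and -0.76.

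**Figure D2:**
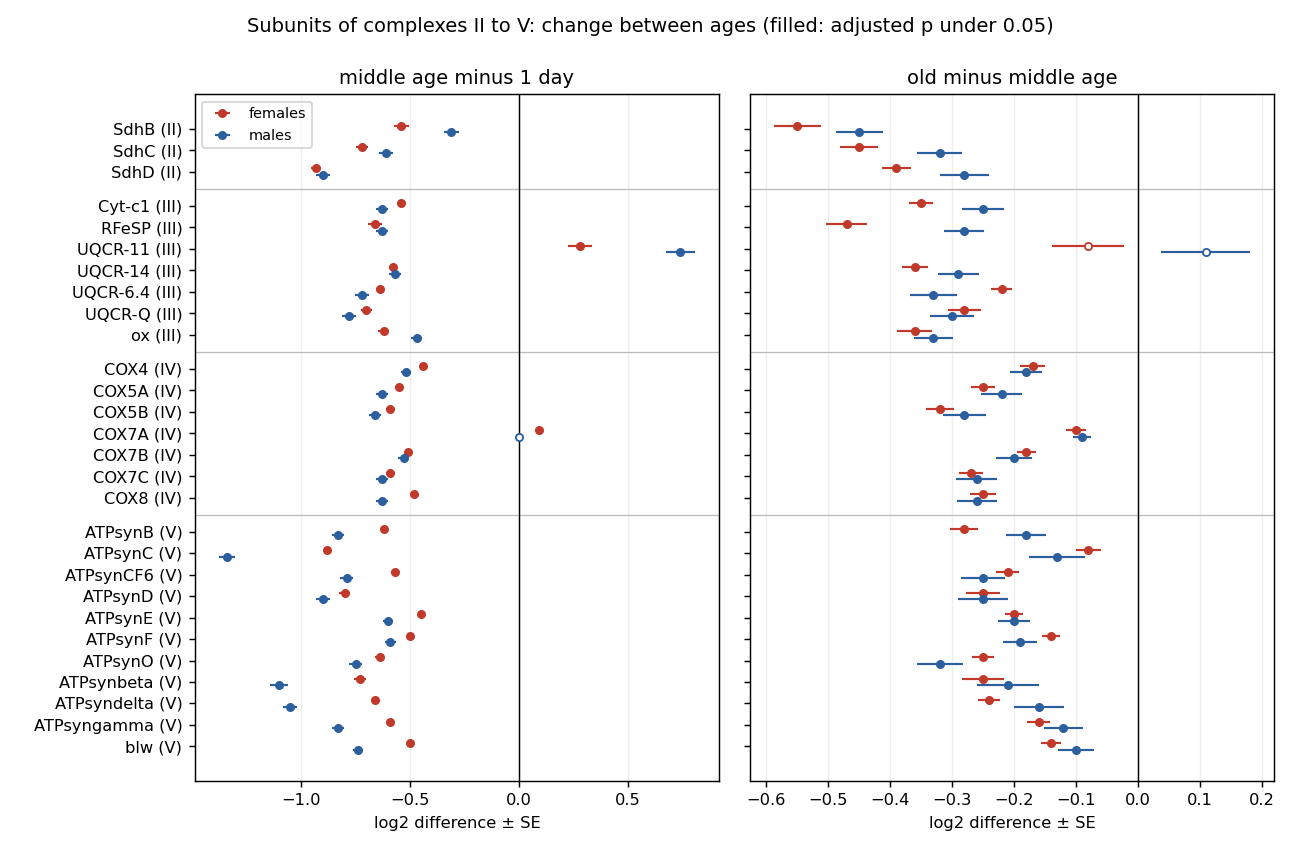
Change in log2 signal (± SE) of the 28 ordinary subunit genes, brightest probe set each, from 1 day to middle age (left) and from middle to old age (right), in females and males; filled points passed an adjusted p of 0.05 and the complex is in brackets. Complex V reaches -1.34 in males on the left, and on the right SdhB of complex II lies farthest to the left in both sexes.

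From middle to old age the subunits fell again, by smaller amounts. In females 31 of 34 ordinary subunits fell and none rose, with a median of -0.24, where 45.3% of all probe sets were called, 21.1% as lower. In males 30 fell and 1 rose, with a median of -0.22, where 41.2% were called, 18.5% as lower. The 1 that rose was the dim extra probe set of COX7B (0.09 ± 0.0352). The medians over all probe sets were -0.00 and -0.02. Without the 6 arrays that stood apart 31 of 34 were lower and none was higher in males.

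SdhB of complex II fell most in both sexes, and complex II had the lowest median of the 4 complexes. SdhB went from 11.31, 11.68 and 12.29 at middle age to 10.77, 11.19 and 11.79 at old age in females, and from 12.06, 12.21 and 12.68 to 11.27, 11.87 and 12.64 in males. The ages overlapped in both sexes. It fell by 0.55 ± 0.0376 in females (limma, adjusted p = 2.05e-18) and 0.45 ± 0.0382 in males (adjusted p = 1.09e-14). SdhC fell by 0.45 ± 0.0308 and 0.32 ± 0.0369 and SdhD by 0.39 ± 0.0229 and 0.28 ± 0.0391. The 3 probe sets of complex II had a median of -0.45 in females and -0.32 in males, against -0.32 and -0.29 for the 8 of complex III, -0.22 and -0.22 for the 10 of complex IV and -0.21 and -0.18 for the 13 of complex V. In females every probe set of complex II fell by at least 0.39, and none of complex V by more than 0.28. Complexes II and V stood at different heights on the scale, and that part in the order was not tested.

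In complex III RFeSP went from 12.25, 12.64 and 13.06 to 11.62, 12.17 and 12.49 in females, a fall of 0.47 ± 0.0333, and fell by 0.28 ± 0.0323 in males. UQCR-6.4, a small subunit, fell by 0.22 ± 0.0173 and 0.33 ± 0.0382. Cyt-c1 fell by 0.35 ± 0.0194 and 0.25 ± 0.034. In complex IV COX4 fell by 0.17 ± 0.0199 in females and 0.18 ± 0.0261 in males and COX5A by 0.25 ± 0.0196 and 0.22 ± 0.0331. In complex V ATPsynbeta fell by 0.25 ± 0.0344 and 0.21 ± 0.0502, blw by 0.14 ± 0.0167 and 0.10 ± 0.0288 and ATPsynC by 0.08 ± 0.0202 and 0.13 ± 0.0455. ATPsynC thus showed the deepest fall of the subunits after the first day in males and a small one later.

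Sdhaf3 fell in males and hardly moved in females, where its median was 9.33 at middle age and 9.34 at old age. It rose by 0.09 ± 0.0395 in females (limma, adjusted p = 0.0462) and fell by 0.26 ± 0.0429 in males (adjusted p = 1.49e-06), a difference of 0.35 ± 0.0518 between the sexes (adjusted p = 4.9e-09). Of the 51 members, 13 differed between the sexes in the change from middle to old age, where 28.9% of all probe sets did. The share among the members was no larger than that, so the count does not set them apart. RFeSP, SdhC, SdhD and Cyt-c1 fell more in females, with differences of -0.19, -0.13, -0.11 and -0.11. UQCR-6.4 fell more in males, with a difference of 0.11. The count was 20 without the 6 arrays that stood apart, and 6 and 8 without replicates 1 and 2. Among the 34 ordinary subunits 7 had a negative female minus male value and 1 a positive one, against 2 and 6 with arrays centred on their medians.

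Among the L copies UQCR-11L fell by 0.50 ± 0.0645 in females, from 6.17, 7.11 and 7.79 to 5.95, 6.59 and 7.23. In old males 2 of the 16 copies were lower, COX7AL2 and COX6AL, and none was higher, with a median of -0.25 that was -0.11 without the array with a female profile. Without all 6 arrays that stood apart 7 of the 16 were lower, with a median of -0.10. The 30 testis and sperm genes had 3 lower and none higher in old males, with a median of -0.22, in the fit that includes the array with a female profile. Without the 6 arrays that stood apart their mean per array was 9.80, 10.14 and 10.54 in old males and 9.86, 10.21 and 10.57 in middle-aged males, with overlap.

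Muscle markers moved over this interval too, and their changes were not compared between the sexes by a test. All 19 were lower in old females, with a median of -0.56 and a mean per array from 10.08 to 11.26 at old age against 10.50 to 12.22 at middle age. In males 7 were lower and 5 higher, with a median of -0.11. That fit includes the old-male array with levels like those of 1-day-old males, whose muscle mean was 13.34. The part of muscle in the falls of the subunits was not tested. The 26 ordinary complex I subunits had 25 lower in females (median -0.27) and 26 in males (median -0.22). Of 16 tricarboxylic acid cycle enzymes 9 were lower in females and 12 in males, and of 11 assembly and haem insertion genes 6 were lower and 1 higher in each sex.

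COX7A and its copy COX7AL2 changed differently with age. COX7A, a small subunit at the interface of complex IV monomers, hardly moved: its female median was 13.26 at 1 day, 13.33 at middle age and 13.22 at old age, and its male median was 13.25, 13.24 and 13.15. Over all 216 arrays it lay between 13.02 and 13.56. COX7AL2 had female levels of 13.18, 13.64 and 14.03 at 1 day, 9.97, 10.81 and 12.18 at middle age and 8.65, 9.55 and 10.65 at old age. Its male levels were 13.88, 13.96 and 14.24, then 11.89, 12.43 and 13.07, and then 10.74, 11.50 and 13.84 on the 35 old-male arrays without a female profile. The first age did not overlap with middle age in either sex, and middle and old age did overlap in both.

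From 1 day to middle age COX7AL2 changed by -2.64 ± 0.0618 in females and -1.48 ± 0.0735 in males, more than any other member, and from middle to old age by -1.44 ± 0.0736 and -1.04 ± 0.089. The sexes differed in both steps, by -1.16 ± 0.0967 (limma, adjusted p = 6.92e-23) and -0.40 ± 0.0967 (adjusted p = 0.000474). At old age its female minus male difference was -1.88 ± 0.0684. The change of COX7AL2 minus the change of COX7A within arrays was -2.73 ± 0.113 (SE) in females and -1.48 ± 0.0485 in males to middle age, and -1.33 ± 0.131 and -0.95 ± 0.108 to old age. The pair was chosen after its values were seen, so these differences are given without a test. The COX7AL2 probe set is of a kind that can bind transcripts of more than 1 gene, by its name on the array.

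**Figure D3:**
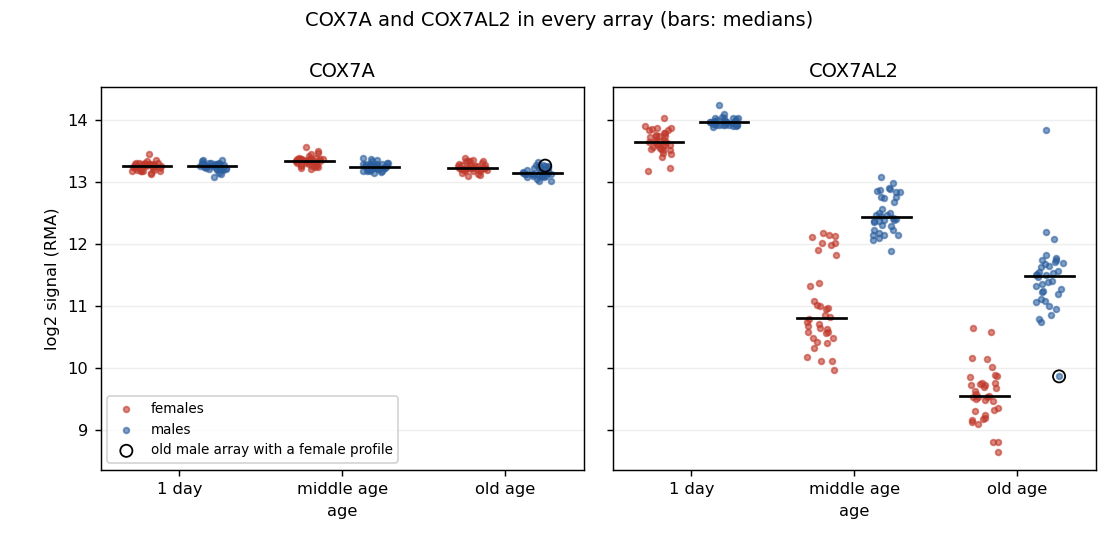
Log2 signal of COX7A (left) and COX7AL2 (right) on each array by age and sex, with bars at the medians; the circled point is the old-male array with a female profile. COX7A stays between 13.02 and 13.56, while COX7AL2 falls from near 14 at 1 day to medians of 9.55 in old females and 11.48 in old males.

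On the food eaten as an adult, subunits were lower on 1SY than on 0.25SY in females and partly higher again on 2.5SY, on the deposited values. Over the middle and old ages 24 of the 34 ordinary subunits were lower on 1SY than on 0.25SY in females, 1 was higher and 9 did not pass, with a median of -0.10, where 52.8% of all probe sets were called, 25.0% as lower. With each array centred on its median 8 were lower and 10 higher, with a median of 0.02, while the median over all probe sets moved from 0.00 to 0.11. From 1SY to 2.5SY 18 were higher and none lower, with a median of 0.06, where 29.8% were called, 15.5% as higher, and on centred arrays 8 were higher and 2 lower. Of all 51 members 20 were called in this second step, 12 without replicate 4 and 13 with quantile normalization within the sex. SdhB rose most among the ordinary subunits in the second step, by 0.28 ± 0.0461, and ox and RFeSP of complex III by 0.18 each. Complex V had 7 of 13 lower in the first step and 2 of 13 higher in the second.

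The first step was larger at middle age. There 27 of 34 were lower on 1SY and 1 higher, with a median of -0.16, in a comparison that called 50.1% of all probe sets (24% as lower), against 5 lower and 1 higher at old age with a median of -0.03, where 41.0% were called (17.4% as lower). On centred arrays 11 were lower and 2 higher at middle age, and none lower and 13 higher at old age, so that only the middle-age direction held. Of all 51 members 9 were called at old age, 6 without replicate 3 and 4 without replicate 4, and 14 without replicate 2. The effect of adult food depended on age for 24 of the 51 members in females, by the F test of the interaction, where 27% of all probe sets did. SdhD had the largest F, 42.0 (limma, adjusted p = 7.63e-09), followed by COX7AL2 at 25.8 (adjusted p = 2.24e-06). The count was 14 with arrays centred on their medians, and 12 and 16 without replicates 1 and 2.

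In middle-aged females SdhD stood at 11.58, 11.90 and 12.07 on 0.25SY, at 11.18, 11.33 and 11.47 on 1SY and at 11.29, 11.43 and 11.59 on 2.5SY, 12 arrays each. Every array on 0.25SY lay above every array on 1SY. The difference of 1SY from 0.25SY was -0.56 ± 0.0396 at middle age and -0.17 ± 0.0396 at old age. SdhB differed by -0.63 ± 0.0652 and -0.17 ± 0.0652, from 11.65, 12.13 and 12.29 on 0.25SY against 11.31, 11.43 and 11.74 on 1SY at middle age, with overlap. RFeSP differed by -0.36 ± 0.0577 and Cyt-c1 by -0.32 ± 0.0336 at middle age. COX7AL2 had the largest value, -1.47 ± 0.127 at middle age, from 11.08, 12.00 and 12.18 on 0.25SY to 9.97, 10.41 and 10.79 on 1SY, without overlap.

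The same interaction can be read as a fall with age on each adult food. In females SdhB fell from middle to old age by 0.91 ± 0.0652 on 0.25SY, 0.45 ± 0.0652 on 1SY and 0.28 ± 0.0652 on 2.5SY, and SdhD by 0.68 ± 0.0396, 0.29 ± 0.0396 and 0.20 ± 0.0396. COX7AL2 changed by -2.18 ± 0.127, -1.08 ± 0.127 and -1.05 ± 0.127. The falls of these genes were thus greatest on the poor food. Of the 34 ordinary subunits 31, 30 and 27 fell on the 3 foods and none rose, where 21.0%, 9.80% and 7.77% of all probe sets were called as lower. In males 28, 5 and 29 fell, where 9.27%, 5.80% and 13.4% were called as lower, and the low count on 1SY was 11 on centred arrays and 29 without the 6 arrays that stood apart.

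Some members went the other way on the same foods. ATPsynC was higher in females on 1SY than on 0.25SY, at 13.54, 13.65 and 13.70 against 13.16, 13.34 and 13.69 at middle age and at 13.49, 13.55 and 13.63 against 13.16, 13.28 and 13.43 at old age, where the foods did not overlap, with a difference of 0.26 ± 0.0247 over the later ages (limma, adjusted p = 1.04e-13). Sdhaf3 was higher by 0.36 ± 0.0483, at 9.11, 9.45 and 9.67 against 8.68, 9.09 and 9.44 at middle age, with overlap, and changed by -0.17 ± 0.0483 from 1SY to 2.5SY. COX4 (-0.05), ATPsynbeta (-0.03) and blw (0.01) did not pass the test between these foods, with standard errors of 0.0244, 0.0422 and 0.0204, while the other probe set of ATPsynbeta passed at -0.05 ± 0.0207. ATPsynC was also the only member with an interaction of larval and adult food in females (F = 5.21, adjusted p = 0.0424), where 3.60% of all probe sets had one. That call was lost without any 1 of the 4 replicates and without the 6 arrays that stood apart.

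Of the copies with the suffix L, UQCR-11L was lower on 1SY in females by -0.24 ± 0.079, COX5BL by -0.27 and ATPsynepsilonL by -0.34. ATPsynepsilonL differed at old age, by -0.52 ± 0.0867, from 6.67, 7.06 and 7.57 on 0.25SY against 6.26, 6.51 and 7.17 on 1SY, with overlap.

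Female tissue markers moved strongly between the same foods. From 0.25SY to 1SY all 18 eggshell and yolk genes were higher, with a median of 2.57, as were 19 of 20 female germline genes, with a median of 0.70, and 17 of 19 muscle genes were lower, with a median of -0.71. At middle age the mean of the muscle list ran from 11.30 to 12.22 on 0.25SY and from 10.50 to 11.51 on 1SY. On 1 female array (middle age, larval 2.5SY, adult 0.25SY, replicate 1) the germline list stood at 7.40. Of the 6 regulators of mitochondrial biogenesis all 6 were higher on 1SY, with a median of 0.25, and 25 of the 26 ordinary complex I subunits were lower, with a median of -0.25. The part of these tissues in the subunits' differences was not tested.

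**Figure D4:**
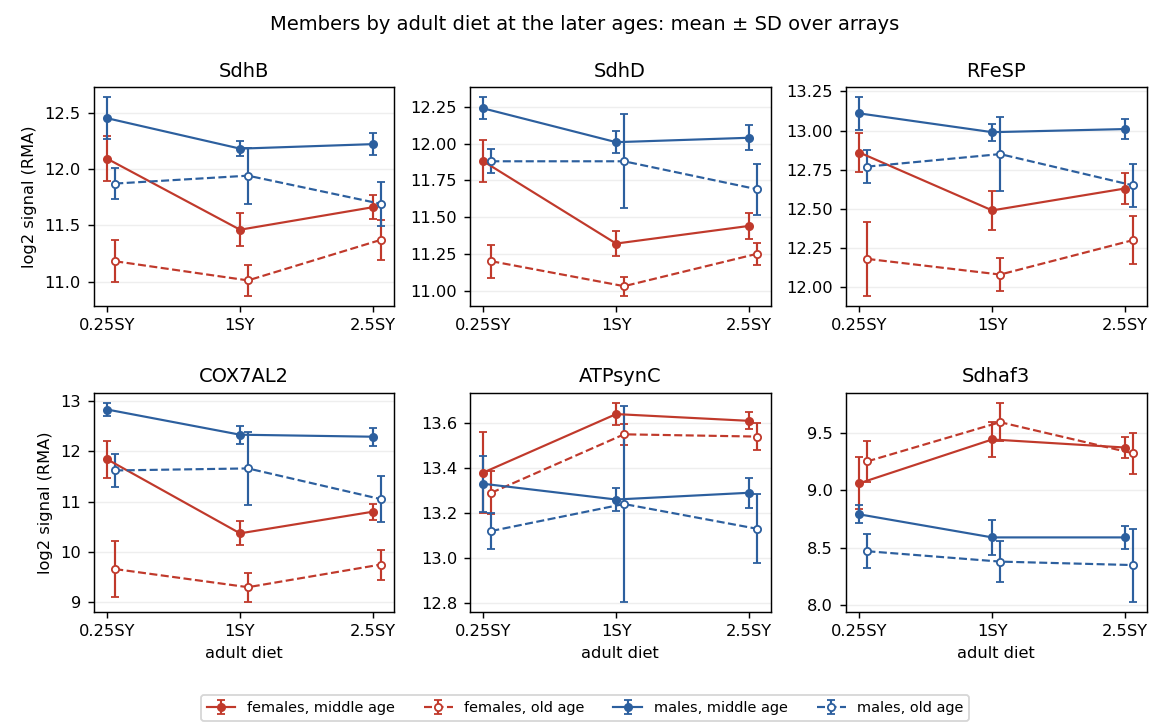
Mean log2 signal ± SD of 12 arrays by adult food for 6 members in females and males at middle and old age. In middle-aged females SdhB, SdhD, RFeSP and COX7AL2 are lower on 1SY than on 0.25SY and ATPsynC and Sdhaf3 are higher; the wide bars of old males on 1SY include the array with levels like those of 1-day-old males.

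In males few members were called between adult foods over the later ages with all arrays kept. Over the later ages 2 of the 51 members, COX5B and COX7A, differed between 1SY and 0.25SY, with -0.13 ± 0.0423 and -0.08 ± 0.0186, where 8.28% of all probe sets were called. Without the 6 arrays that stood apart 26 members were lower on 1SY, and without replicate 3, which holds the old-male array with levels like those of 1-day-old males, 25 were lower. In middle-aged males the mean per array over the subunit genes was 12.99 to 13.15 on 0.25SY and 12.82 to 12.95 on 1SY. These ranges did not overlap. In middle-aged females that mean was 12.80 to 13.02 on 0.25SY and 12.68 to 12.80 on 1SY. The difference in this mean was not tested. At middle age 14 of the 34 ordinary subunits and COX7AL2 were lower on 1SY in males, where 7.13% of all probe sets were called, 3.65% as lower. Without replicates 1, 2 and 4 in turn 2, 1 and 2 members were called in place of these 15, and without replicate 3 27 were. SdhB differed by -0.27 ± 0.0661, from 12.08, 12.48 and 12.68 on 0.25SY against 12.13, 12.16 and 12.33 on 1SY, with overlap. SdhD differed by -0.23 ± 0.0677 and COX7AL2 by -0.50 ± 0.154. Of the 19 muscle genes 3 were lower in this comparison and none was higher, with a median of -0.17.

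The difference between 1SY and 0.25SY at middle age was itself compared between the sexes, in a test added after earlier results were seen. It differed for 7 of the 51 members, where 42.5% of all probe sets differed. The 3 ordinary subunits of complex II, RFeSP and COX7AL2 were more negative in females, with SdhB at -0.36 ± 0.084 and COX7AL2 at -0.96 ± 0.167. Sdhaf3 (0.58 ± 0.0897) and ATPsynC (0.34 ± 0.0717) were more positive in females. Of the 34 ordinary subunits 4 were negative and 1 positive, against 2 and 7 on centred arrays.

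From 1SY to 2.5SY no member differed in males by limma over the later ages, where 2.37% of all probe sets were called. At an unadjusted p under 0.05 there were 7, and the fit without moderation also called none. At old age 4 members were lower on 2.5SY, SdhB, RFeSP, COX7AL2 and ATPsynbetaL, where 2.73% of all probe sets were called, and none of the ordinary subunits or copies was called without the array with a female profile, nor any member without replicate 1, 2 or 3. The interaction of adult food with age was not called for any member in males, where 0.256% of all probe sets were called. At an unadjusted p under 0.05 there were 23 members, the fit without moderation called none and the fit with array weights called 3.

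Larval food left differences in the newly emerged females. At 1 day 30 of the 34 ordinary subunits differed over the 3 larval foods by the F test, where 38.9% of all probe sets did. Between 1SY and 0.25SY 31 of the 34 were lower on 1SY and none was higher, with a median of -0.17, where 41.2% of all probe sets were called, 18.4% as lower. From 1SY to 2.5SY 8 were higher, where 9.08% were called, 3.37% as higher, and none, 3, 1 and 4 members were called without replicates 1, 2, 3 and 4. The F test called 32 of the 51 members, and 15 after centring each array on its median. For 1SY against 0.25SY that centring moved the median over all probe sets from 0.02 to 0.12.

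SdhD had the largest F at 1 day, 57.1 (limma, adjusted p = 2.71e-13), and COX5B, a subunit on the matrix side of complex IV, came next at 42.4 (adjusted p = 5.3e-11). SdhD stood at 12.56, 12.68 and 12.83 on larval 0.25SY, 12.09, 12.22 and 12.59 on 1SY and 12.30, 12.48 and 12.66 on 2.5SY, 12 arrays each. The poor food gave the highest values, with a small overlap. The difference of 1SY from 0.25SY was -0.41 ± 0.0388. COX5B differed by -0.33 ± 0.0358, from 13.75, 13.84 and 13.94 on 0.25SY to 13.41, 13.47 and 13.73 on 1SY, without overlap. SdhC differed by -0.32 ± 0.0482, RFeSP by -0.31 ± 0.0535, SdhB by -0.29 ± 0.0614 and Cyt-c1 by -0.24 ± 0.0301. Complex V had all 13 probe sets lower, with blw at -0.08 ± 0.0253 and ATPsynbeta at -0.16 ± 0.0512 (-0.25 ± 0.0295 by its other probe set). Sdhaf3 was higher on 1SY, by 0.17 ± 0.0609, as it was on adult food.

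In 1-day-old males no member differed over the larval foods by limma, where 2.34% of all probe sets were called. None was under an unadjusted p of 0.05 and none was called without moderation. SdhD stood at 12.97, 13.03 and 13.19 on 0.25SY and at 12.87, 12.98 and 13.04 on 1SY, a difference of -0.08 ± 0.0567. The difference of 1SY from 0.25SY was compared between the sexes in a test added after earlier results were seen. It was more negative in females for 16 of the 51 members, all of them ordinary subunits, where 29.2% of all probe sets differed, 12.8% in that direction, and for 10 without replicate 2. SdhD had the largest value, -0.34 ± 0.0683, then COX5B at -0.31 ± 0.0609 and ox, a small subunit of complex III, at -0.28 ± 0.0629.

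Beside these, 16 of 19 muscle genes were lower on larval 1SY in 1-day-old females, with a median of -0.41 and a mean per array from 12.54 to 12.85 against 12.94 to 13.21 on 0.25SY. Of the 20 female germline genes 12 were higher and 1 lower, with a median of 0.34. All 26 ordinary complex I subunits were lower, with a median of -0.37. In males none of the 19 muscle genes and none of the 26 complex I subunits was called. The part of muscle or germline in the females' differences was not tested.

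**Figure D5:**
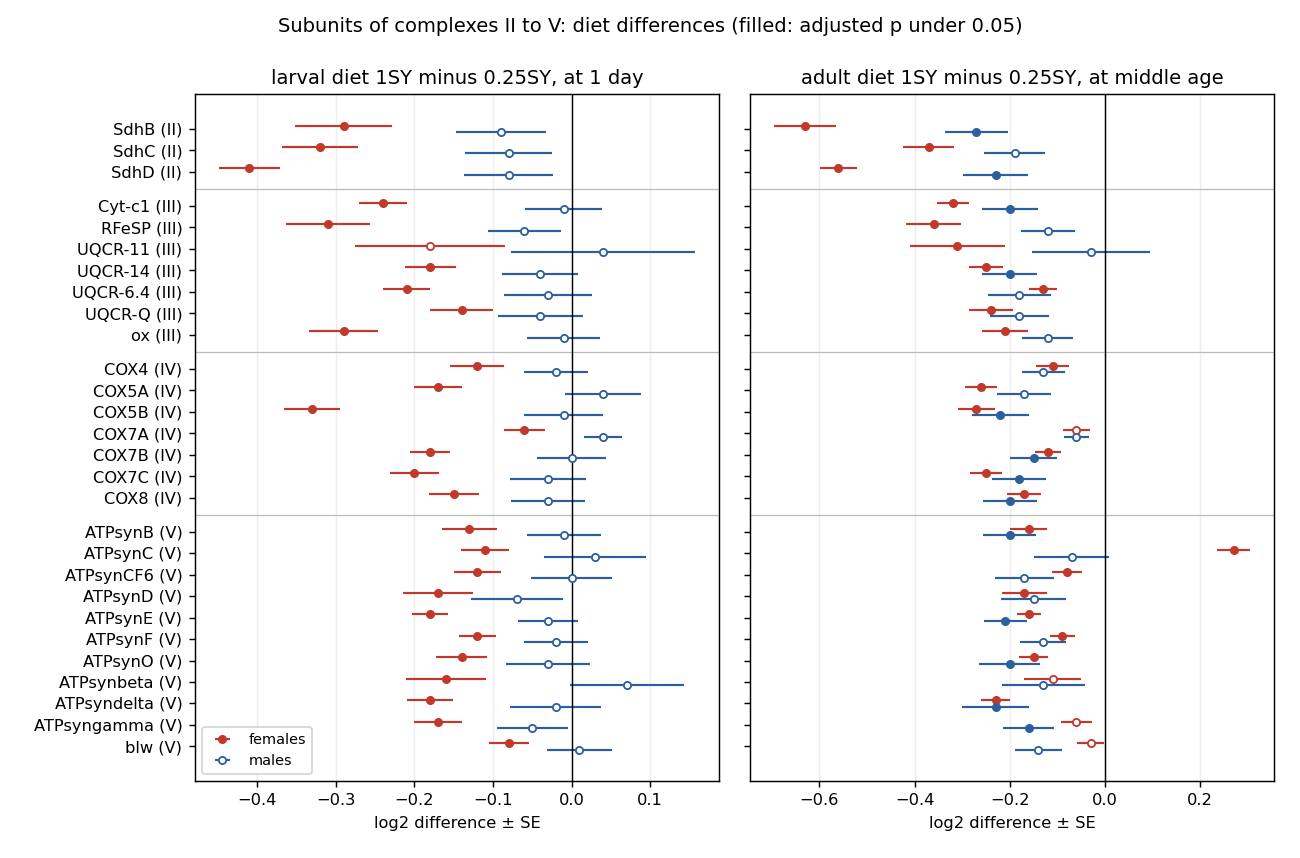
Log2 difference (± SE) of 1SY from 0.25SY for the 28 ordinary subunit genes, brightest probe set each, for larval food at 1 day (left) and adult food at middle age (right), in females and males; filled points passed an adjusted p of 0.05. On the left the female points lie between -0.41 and -0.06 and no male point is filled; on the right ATPsynC in females is the only filled point above 0.

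At the later ages larval food no longer gave a call. Over middle and old age no member differed between larval foods in either sex by limma, where 0.0639% of all probe sets were called in females and 0.272% in males. None was under an unadjusted p of 0.05 in either sex, and none was called without moderation, but 4 were called in males with array weights and 8 without the array with a female profile. For larval food by age no member was called in either sex, where 0.00% and 0.00533% of all probe sets were called, with 11 members under an unadjusted p of 0.05 in females and 2 in males and none called without moderation. The interaction of larval and adult food in males and that of both with age in either sex called no member, where 0.0213% of all probe sets were called for the first and 0.613% (females) and 0.00533% (males) for the second. At an unadjusted p under 0.05 there were 0, 6 and 1 members, and none was called without moderation. Adult food at 1 day, after a single day on it, was called for SdhD and COX5B in females, where 2.66% of all probe sets were called and either 0 or 1 member was called without 1 replicate, and for no member in males, where 0.378% were called, 0 members were under an unadjusted p of 0.05 and none was called without moderation. The male fit took its spread from all 3 ages here too.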

How the data were processed

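RNA of 5 whole virgin flies per array was measured on Affymetrix Drosophila Genome 2.0 arrays, in 54 groups of 4 arrays. The deposited table holds log2 values that, per the labels, the authors computed with RMA (background adjustment, quantile normalization and summarization of probes). Their methods describe a normalization per sex from which 2 arrays of females and 4 of males were dropped, while the deposited table holds all 216, so whether it was normalized within or across the sexes is not given in the sources used here. The deposited arrays did not share one distribution of probe set values. Their medians ran from 6.62 to 6.92 in arrays labelled female and from 6.73 to 7.39 in those labelled male. A sex difference therefore depends on the reference taken. No array or value was replaced or imputed.

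Groups were taken from the labels. Of 18952 probe sets 183 are controls, and 18769 were tested without a filter on dim signals; 49 of the 51 members had a mean of at least 5. The platform annotation pairs 13647 of the tested probe sets with 1 gene, 402 with several and 4720 with none, and 13544 symbols were updated through the Entrez number from the RefSeq annotation of Release 6, which changed no member's symbol.

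Differences were tested with limma 3.58.1 in R 4.3.3 (lmFit and eBayes) on group means: within each sex on the 72 arrays of the later ages for the old against middle age and adult food contrasts, on all 108 for those with 1 day, and on all 216 for those between the sexes. P-values were adjusted over all probe sets by Benjamini-Hochberg, with a threshold of 0.05. The code was tested on simulated data. The number of arrays limits the precision, and the background level of a probe set is unknown.

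The members and gene lists were chosen with earlier results of these data known. The rule for named genes took each suffix L copy, the 4 largest positive and 4 largest negative called differences per main comparison, the 2 largest F per interaction, and fixed core subunits. COX7C, UQCR-Q, UQCR-11 and ATPsynepsilonL as examples, the pair of COX7A and COX7AL2, and the tests of sex by food and of sex by the change from 1 day, were chosen after values were seen. The lists of oxidative phosphorylation, assembly, tricarboxylic acid cycle, biogenesis, complex I, testis, eggshell, germline, muscle and accessory gland genes were described by counts and medians only. Alternatives were array weights, no moderation of variances, centring each array on its median, a second quantile normalization within each sex, a minimum mean of 5, the provider's sample number in blocks of 24, a replicate block, and leaving out replicates, and, chosen after seeing the data, leaving out the 6 arrays of lowest weight or the array with a female profile.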

Additional observations from a re-analysis of the deposited data

Results flagged for a closer look

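The mean over the 28 subunit genes and the mean over the 15 suffix L copies other than COX7AL2 were looked at in each of the 54 groups of 4 arrays, and in 10 of these 108 groups 1 array lay far from the other 3, where chance gives about 1 in 20. For the subunit mean these were, among middle-aged females, replicate 4 of larval 0.25SY and adult 0.25SY at 13.02 (others 12.92 to 12.93), replicate 3 of larval 0.25SY and adult 2.5SY at 12.74 (others 12.81), replicate 3 of larval 1SY and adult 1SY at 12.73 (others 12.68 to 12.69) and replicate 2 of larval 2.5SY and adult 2.5SY at 12.86 (others 12.77 to 12.79). Among old females, replicate 4 of larval 0.25SY and adult 1SY stood at 12.54 (others 12.46 to 12.47). Among males, replicate 2 of larval 2.5SY and adult 2.5SY at middle age stood at 12.84 (others 12.94), and replicate 3 of larval 0.25SY and adult 1SY at old age stood at 13.55 (others 12.61 to 12.70). For the mean of the copies, replicate 3 of 1-day-old females (larval 2.5SY, adult 0.25SY) stood at 5.47 (others 5.35 to 5.36), replicate 4 of old females (larval 1SY, adult 1SY) at 5.50 (others 5.24 to 5.27) and replicate 1 of old males (larval 0.25SY, adult 2.5SY) at 5.30 (others 9.50 to 9.81).

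The change from middle to old age differed between the sexes by limma for 11 of the 45 member genes, taking the brightest probe set of each, and for 13 of the 51 probe sets, where 28.9% of all probe sets differed. The female minus male difference of the change was -0.40 for COX7AL2, -0.33 for UQCR-11L, -0.19 for RFeSP, -0.13 for SdhC, -0.11 for SdhD, -0.11 for Cyt-c1 and -0.10 for ATPsynB on the log2 scale. It was 0.11 for UQCR-6.4, 0.20 for ATPsynepsilonL, 0.32 for COX6AL and 0.35 for Sdhaf3. The sexes differed in the change from 1 day to middle age for 41 of the 51 probe sets (54.9% of all probe sets), in the difference between larval 1SY and 0.25SY at 1 day for 16 (29.2%) and in that between adult 1SY and 0.25SY at middle age for 7 (42.5%). The 13 and the 7 were smaller shares of the members than 28.9% and 42.5%.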

How the results depend on the processing

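Of 166 called values of named genes, 135 kept their direction and their side of the threshold under every alternative run; over 2028 values under alternatives, 1973 kept both, 40 kept the direction but lost the call and 15 changed sign. All 15 were female minus male differences with arrays centred on their medians, by construction a shift of the sex contrast: at 1 day ATPsynbeta 0.27, COX4 0.20, COX5A 0.15, COX7AL2 0.14, Cyt-c1 0.20, RFeSP 0.12, SdhB 0.13 and blw 0.27, at middle age COX4 0.30, COX5A 0.24, Cyt-c1 0.30 and RFeSP 0.10, and at old age COX4 0.38, COX5A 0.28 and Cyt-c1 0.26. Counts of called members that moved by over 1.5 times are given next, and the cause was not tested. With centred arrays, adult diet by age in females gave 14 (24 as reported), larval diet at 1 day in females 15 (32), larval by adult diet in females 2 (1), adult diet at 1 day in females 0 (2), adult 1SY against 0.25SY in males 0 (2) and sex by age 20 (13). With quantile normalization within a sex, adult 2.5SY against 1SY in females gave 13 (20), larval by adult diet in females 0 and adult 1SY against 0.25SY in males 1. With array weights, larval by adult diet in females gave 2, adult diet at 1 day in females 7, and in males adult 1SY against 0.25SY gave 29, larval diet 4 (0) and adult diet by age 3 (0). Larval by adult diet in females gave 2 with a minimum mean of 5, 0 with the provider block and 0 without the 6 arrays of lowest weight. Without those 6 arrays adult 1SY against 0.25SY in males gave 26, larval diet in males 2, adult diet by age in males 2 and sex by age 20. Without the array with a female profile adult 1SY against 0.25SY in males gave 4 and larval diet in males 8, and the provider block gave 1 for the former. Leaving out 1 replicate at a time gave 12 to 16 for adult 2.5SY against 1SY in females, 12 to 20 for adult diet by age in females, 0 to 0 for larval by adult diet in females, 0 to 1 for adult diet at 1 day in females, 0 to 25 for adult 1SY against 0.25SY in males, 0 to 1 for larval diet in males and 6 to 14 for sex by age; the falls from 1 day to middle age gave 39 to 41 in females and 48 to 49 in males, and those to old age 34 to 36 and 29 to 32. Arrays with the same replicate number did not deviate together (median r over 612 pairs in each sex -0.00 in females and -0.01 in males, with 166 and 110 pairs over 0.1), and the replicate block gave 36 and 35 members for old against middle age (36 and 34 without it) and moved no such count by over 1.5 times. Signals near the top of the scale and copies near its bottom in females limit what a difference of log2 values shows for them.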

Other observations

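Ordinary subunits of complexes IV and V also carry names outside the rule, and levy, cype and sun were looked at beside it. levy, the COX6A subunit of complex IV, stood at 13.45, 13.74 and 13.93 (lowest, median and highest of 36 arrays) in 1-day-old females, 13.01, 13.24 and 13.64 at middle age and 12.74, 13.00 and 13.23 at old age. It fell by 0.45 ± 0.0198 and then 0.27 ± 0.0223 in females and by 0.54 ± 0.027 and 0.31 ± 0.0308 in males (SE). cype, the COX6C subunit, fell by 0.33 ± 0.0153 and 0.26 ± 0.0171 in females and by 0.30 ± 0.0193 and 0.29 ± 0.0227 in males. sun, the epsilon subunit of complex V, was dimmer, at 6.59, 7.59 and 7.79 in 1-day-old females and 6.15, 6.61 and 7.02 in 1-day-old males. To middle age it changed by -0.26 ± 0.0476 in females and 0.20 ± 0.0468 in males. To old age it changed by 0.00 ± 0.0456 and 0.01 ± 0.0426. At 1 day sun was higher in females by 0.95 ± 0.0474. In middle-aged females levy was lower on adult 1SY than on 0.25SY by -0.28 ± 0.0386. Cyt-c1L, a copy of cytochrome c1, was lower in females at 1 day, by -2.98 ± 0.0626. Of the 7 further oxidative phosphorylation genes with a probe set, 5 fell and 2 rose from 1 day to middle age in females, and 6 fell and 1 rose in males.

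Other mitochondrial gene groups went different ways. Of the 11 assembly and haem insertion genes 7 were higher and 4 lower in females at 1 day, with a median of 0.57, and from 1 day to middle age the females had 4 that rose beside 4 that fell, and the males 6 beside 3. The 6 regulators of mitochondrial biogenesis were all higher in females at 1 day, with a median of 1.46, and all lower on adult 2.5SY than on 1SY in females, with a median of -0.13. Of the 16 tricarboxylic acid cycle enzymes 11 fell and 3 rose from 1 day to middle age in females, with a median of -0.23, and 12 fell and 3 rose in males, with a median of -0.85. The 6 suffix L copies of complex I were all lower in females at 1 day, with a median of -2.73, and all fell from 1 day to middle age in males, with a median of -0.70. Of the 14 accessory gland genes 10 fell from middle to old age in males, with a median of -0.67 in the fit that includes the array with a female profile, and without the 6 arrays that stood apart their mean per array was 11.89, 12.25 and 12.53 at middle age and 11.26, 11.89 and 12.40 at old age. These counts are descriptions, and no list was tested against other genes.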
